A study of Mus musculus with 12 samples.

Results

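The transforming growth factor beta (TGF-beta) pathway is described here by 10 genes: the ligands Tgfb1, Tgfb2 and Tgfb3, the receptors Tgfbr1, Tgfbr2 and Tgfbr3, and the intracellular mediators Smad2, Smad3, Smad4 and Smad7. The members were taken as every probe set whose gene symbol is 1 of these names. Each symbol matched 1 probe set, which gave 10 of the 23185 named genes in the table. The 12 arrays measured RNA of abdominal fat from db/db mice (BKS.Cg-Dock7m +/+ Leprdb/J) at 12 weeks of age, in which a leptin receptor mutation causes obesity and diabetes. In all 4 groups the animals were given adenoviruses that express a short hairpin RNA (shRNA), and fat was taken 1 week later. The control dose was 4e9 plaque-forming units (pfu) of virus with a control shRNA. The LCN13 group received 2e9 of LCN13 shRNA virus plus 2e9 of control virus. The TSC22D4 group received 2e9 of TSC22D4 shRNA virus plus 2e9 of control virus. In the combined group, 2e9 of TSC22D4 virus and 2e9 of LCN13 virus were given without any control virus. TSC22D4 is a transcriptional regulator of the TSC22 domain family, and LCN13 is a lipocalin that circulates in blood. The labels mark the controls as WT and the others as knockdowns, and do not say which tissue the virus reached. Each group held 7 animals, of which 3 described as representative were put on arrays, so the animals were not a random choice.

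TGF-beta ligands are secreted in a latent form, held by binding proteins in the matrix, and are active only after release. Active ligand binds the kinase receptor TGFBR2, which recruits and phosphorylates TGFBR1, while TGFBR3 (betaglycan) is a co-receptor that presents ligand, above all TGF-beta 2. TGFBR1 then phosphorylates SMAD2 and SMAD3, which join SMAD4 and enter the nucleus to regulate target genes. SMAD7 is an inhibitory Smad that the pathway itself induces and that blocks and helps degrade TGFBR1. In adipose tissue the pathway is known for restraining adipocyte differentiation and promoting matrix deposition. The TSC22 family takes its name from its first member, which was found as a TGF-beta-induced transcript.

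The start regions of the ligand genes Tgfb1 and Tgfb2 are printed because they hold different motif letters, and because Tgfb2 was the ligand whose 3 shRNA group means lay above control by nearly the same amount, 0.17 to 0.19 log2. The sequences are the 250 bases before the annotated start in RefSeq (GRCm38.p6), 5′ to 3′ on the gene's strand. Tgfb1 is at chr7:25686752-25687001 on the plus strand and Tgfb2 at chr1:186705990-186706239 on the minus strand. Capitals mark matches on either strand to TATAAA (the TATA box letters), GGGCGG (the GC box letters bound by Sp1) or CAGAC (letters of the Smad-binding element).
Tgfb1: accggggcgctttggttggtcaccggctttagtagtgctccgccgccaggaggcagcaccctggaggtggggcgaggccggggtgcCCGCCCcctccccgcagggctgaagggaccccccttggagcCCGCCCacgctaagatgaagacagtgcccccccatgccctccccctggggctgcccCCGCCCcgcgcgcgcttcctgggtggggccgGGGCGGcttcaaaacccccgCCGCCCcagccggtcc
Tgfb2: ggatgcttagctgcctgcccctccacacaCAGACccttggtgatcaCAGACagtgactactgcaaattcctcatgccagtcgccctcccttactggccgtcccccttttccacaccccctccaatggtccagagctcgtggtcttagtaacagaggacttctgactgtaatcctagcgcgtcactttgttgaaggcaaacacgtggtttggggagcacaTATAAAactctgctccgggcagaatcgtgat
The Tgfb1 window held 5 matches to GGGCGG and 0 to TATAAA, with 75.2% G and C. The Tgfb2 window held 1 TATAAA, 31 to 26 bases before the start, and 2 CAGAC, 221 to 217 and 204 to 200 bases before it, with 0 GGGCGG and 53.6% G and C. Over the 32851 windows of 250 bases in the same table, 12.4% held TATAAA, 32.7% GGGCGG and 42.2% CAGAC, so a CAGAC match is common. The palindromic form GTCTAGAC, in 0.167% of windows, was in 0 of the 6 member windows searched. These belong to the 5 members Tgfb1, Tgfb2, Tgfbr1, Tgfbr2 and Smad3. Windows of Smad2, Smad4 and Smad7 were not searched, so this count says nothing about them. The shares over all windows include their chromosome. A match is a description of the letters and not a measured site.

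Adipocyte markers were high on every array: Adipoq lay between 12.20 and 12.45 and Fabp4 between 13.94 and 14.11, where the highest value of any probe set was 14.4. Values are log2 units made by RMA, which corrects background, brings arrays to 1 distribution and summarises the probes of a probe set; 1 unit is a 2-fold difference. Each level is of 1 probe set and is not set against that of another gene. Differences are shRNA group minus control unless stated, and genes passed at an adjusted p under 0.05 in limma, with Benjamini-Hochberg adjustment over all 23185 genes. The targeted genes did not pass: Tsc22d4 was at -0.0074 with TSC22D4 (adjusted p = 0.989), and Lcn13, listed as Obp2a, was at -0.013 with LCN13 (adjusted p = 0.858) at 5.71 to 5.79, near the lower end. Marker means moved with some groups. All 11 measured interferon-stimulated genes were lower in each comparison with control, and 9 of them passed. The mean of the 11 was 9.84 to 10.20 in controls against 7.43 to 7.85 on the other 9 arrays. The 7 fibroblast and preadipocyte markers had a mean of 10.43 to 10.67 in controls, 10.80 to 10.83 with LCN13, 10.54 to 10.74 with TSC22D4 and 10.74 to 10.82 with both, 0 of them passing. The 3 smooth muscle markers had a mean of 8.03 to 8.25 in controls, 8.43 to 8.59 with LCN13, 8.21 to 8.36 with TSC22D4 and 8.17 to 8.44 with both, with Des passing higher with LCN13 (0.36) and TSC22D4 (0.30). The 8 mesothelial markers had a mean of 8.60 and 8.62 in LCN13 replicates 5 and 6 against 7.49 to 8.05 on the other 10 arrays, 0 of them passing, and the 7 macrophage markers were at 11.14 to 11.42 in controls and 11.01 to 11.28 elsewhere. The 3 measured red blood cell and platelet markers had a mean of 9.61 to 9.73 in the combined group, above 8.26 to 9.40 in controls, 8.44 to 9.36 with LCN13 and 8.97 to 9.36 with TSC22D4, and 0 of them passed: with both, Alas2 was at 1.54, Slc4a1 at 1.10 and the platelet gene Pf4 at -0.25. The 3 liver markers had a mean of 7.67 to 8.31 with LCN13, 6.81 to 7.73 in controls, 7.01 to 7.31 with TSC22D4 and 6.96 to 8.16 with both, 0 of them passing, with Alb at 1.83 and Ttr at 0.56 with LCN13. The 3 measured B and plasma cell markers had a mean of 6.10 to 6.23 in controls and 6.27 to 7.13 with TSC22D4. Their mean was 6.19 to 6.35 with LCN13 and 6.22 to 6.56 with both, 0 of the markers passing. With TSC22D4, Jchain was at 1.47, with arrays at 8.95, 6.87 and 8.62, while Cd79a was at 0.097 and Ms4a1 at 0.15. The part of these marker sets in the values of Smad2, Smad7, Ltbp4, Acvr1, Smad5, Usp15, Snai2 and Thbs1 was not tested. Without LCN13 replicates 5 and 6, Smad7 was at 0.74 (adjusted p = 0.598) and Smad2 at 0.10 (adjusted p = 0.576) with LCN13. In bulk tissue, fewer cells of a type and less RNA per cell cannot be told apart.

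Over the 4 groups, none of the 10 members passed the test of any group difference. In limma's moderated F test over the groups, 374 genes or 1.61% passed, and 0 of 10 members. At an unadjusted p under 0.05 the members were 3 (Smad2, Smad7 and Tgfbr3), against 16.1% of all genes. The smallest F p was that of Smad2 (adjusted p = 0.158), followed by Tgfbr3 (adjusted p = 0.286) and Smad7 (adjusted p = 0.305). 

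**Figure D1:**
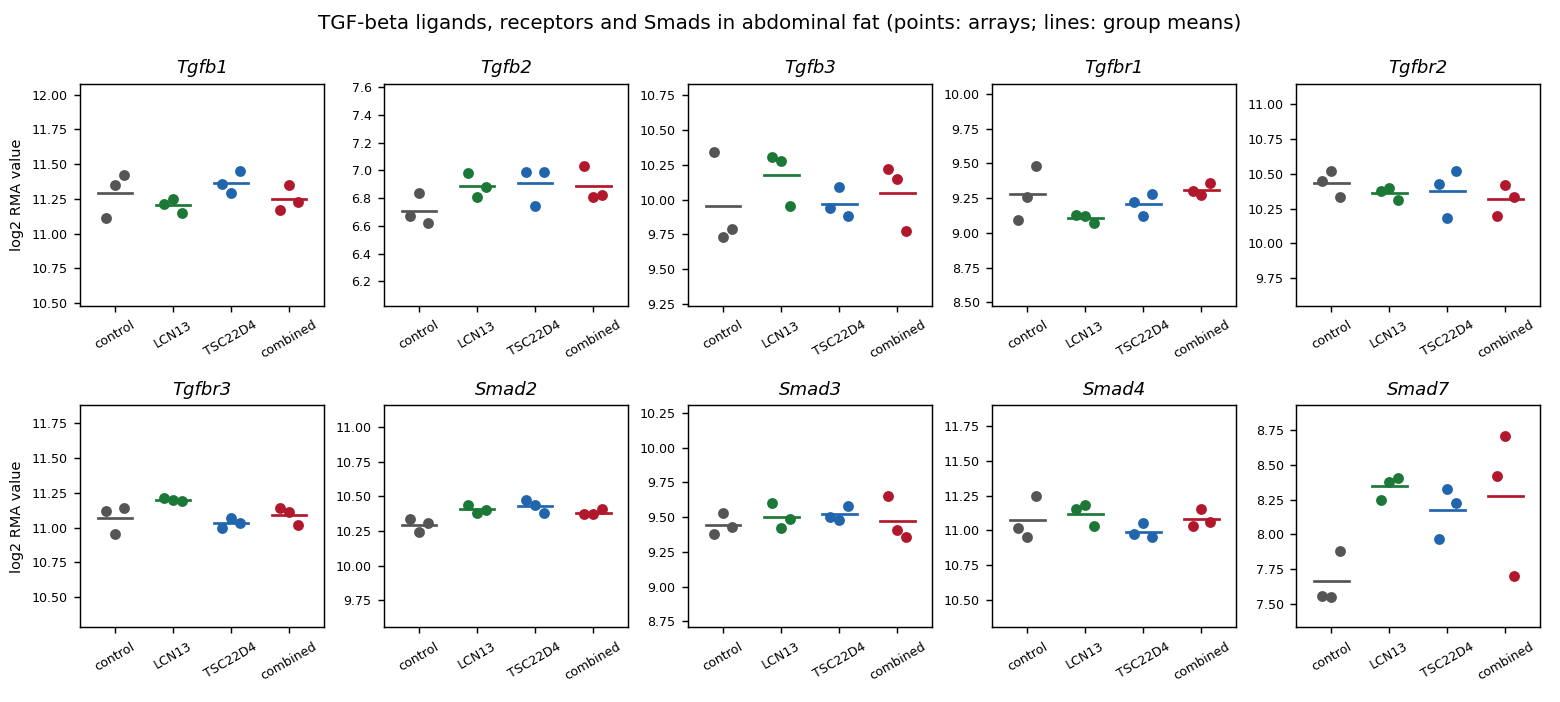
Log2 RMA values of the 10 members on the 12 arrays (vertical axis, each panel 1.6 units high; horizontal axis, shRNA group); points are arrays in the order of their replicate numbers and lines are group means. Smad7 spans 1.15 units, its controls lie at 7.55 to 7.88, and the combined group reaches from 7.70 to 8.71, while Smad2 spans 0.23 units.

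Among the ligands, Tgfb1, the form made by macrophages and many other cells, was at 11.11, 11.35 and 11.42 in the controls (mean 11.30 ± 0.16, SD, n = 3). It was at 11.21, 11.25 and 11.15 in the LCN13 group, at 11.36, 11.29 and 11.45 in the TSC22D4 group and at 11.17, 11.35 and 11.23 in the combined group. Each of these lay within the control range except TSC22D4 replicate 12, and the largest difference from control was -0.09 with LCN13 shRNA (95% interval -0.27 to 0.087). The 3 TSC22D4 arrays lay above the 3 LCN13 arrays, a difference of 0.16 that did not pass (limma adjusted p = 0.333); 10.1% of all genes were separated in that direction. Tgfb2, the form that depends most on betaglycan for binding, was at 6.67, 6.84 and 6.62 in the controls. It was at 6.98, 6.81 and 6.88 with LCN13 shRNA, 6.99, 6.74 and 6.99 with TSC22D4 shRNA and 7.03, 6.81 and 6.82 with both. The shRNA means were higher by 0.18, 0.19 and 0.17, but each group overlapped the controls through control replicate 2. None passed (adjusted p = 0.462, 0.452 and 0.562). On every array Tgfb2 lay above 6.31, the median of all deposited values.

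Tgfb3, the third ligand, varied most within groups among the ligands, with a residual SD of 0.24 against a median of 0.0647 over all genes. Control replicate 1 was at 10.34 and the other controls at 9.73 and 9.79. LCN13 replicates 5 and 6 were at 10.31 and 10.28 and replicate 8 at 9.95, and the combined group ran from 9.77 to 10.22. TSC22D4 arrays were between 9.88 and 10.09. The 4 groups overlapped, and the difference of 0.23 with LCN13 shRNA had an interval of -0.18 to 0.63 (adjusted p = 0.68). A 1.5-fold increase, which is 0.58 log2, was thus not excluded for this gene in this group.

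Of the receptors, Tgfbr1, the signalling kinase receptor, was at 9.09, 9.26 and 9.48 in the controls and at 9.13, 9.12 and 9.07 with LCN13 shRNA, a difference of -0.17 (adjusted p = 0.453). The combined group was at 9.30, 9.27 and 9.36, so its 3 arrays lay above the 3 LCN13 arrays by 0.20 on average (limma adjusted p = 0.426; 7.31% of genes were separated in that direction). TSC22D4 arrays, at 9.22, 9.12 and 9.28, lay within the control range. Tgfbr2, the ligand-binding kinase receptor, had its mean below control in all 3 shRNA groups, by -0.057 with TSC22D4, -0.067 with LCN13 and -0.12 with both. It was at 10.45, 10.52 and 10.33 in the controls against 10.18 to 10.52 over the other 9 arrays, and the smallest adjusted p against control was 0.766. Over all genes, 22.1% had all 3 shRNA means below control and 23.8% above.

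Tgfbr3, betaglycan, had its own largest group difference between the single-shRNA groups, though not the largest there of all members. It was at 11.21, 11.20 and 11.19 with LCN13 shRNA and at 11.00, 11.07 and 11.03 with TSC22D4 shRNA, and the groups did not overlap. The difference of TSC22D4 from LCN13 was -0.17 (SE 0.05, 95% interval -0.28 to -0.054), which did not pass over all genes (limma adjusted p = 0.137). In that comparison 15% of all genes lay lower on all 3 TSC22D4 arrays and 1.03% passed in either direction, so the separation was a common one. Control arrays, at 11.12, 10.95 and 11.14, and combined arrays, at 11.14, 11.11 and 11.02, lay between or across these, and the 3 combined arrays lay below the 3 LCN13 arrays, as did those of 9.22% of genes. Against control, Tgfbr3 was at 0.13 with LCN13 (adjusted p = 0.302), at -0.033 with TSC22D4 and at 0.025 with both.

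Smad2, a receptor-activated Smad, was the only member whose 9 shRNA arrays all lay above the 3 controls, which held for 1.1% of all genes. The controls were at 10.34, 10.24 and 10.31. LCN13 arrays were at 10.44, 10.38 and 10.40, TSC22D4 arrays at 10.47, 10.44 and 10.38, and combined arrays at 10.37, 10.37 and 10.41. The gap between the highest control and the lowest other array was narrow, 10.34 against 10.37. The differences were small: 0.13 with TSC22D4 (SE 0.032, adjusted p = 0.0997), 0.11 with LCN13 (adjusted p = 0.165) and 0.085 with both (adjusted p = 0.331), or 1.1-fold, 1.08-fold and 1.06-fold. Its residual SD of 0.039 was below the median of 0.0647 over all genes. With limma's array weights, which count some arrays more than others, Smad2 passed with TSC22D4 (0.17, adjusted p = 0.0291), with LCN13 (0.15, adjusted p = 0.0404) and over the 4 groups (adjusted p = 0.0491), but not with both (0.11, adjusted p = 0.143). Those weights set control replicate 2, which holds the lowest Smad2 value, at 1.99 against 0.531 and 0.57 for the other controls. With a trended robust prior in limma, the adjusted p of Smad2 was 0.362 with TSC22D4, 0.461 with LCN13 and 0.68 with both. Without dim probe sets it was 0.22, 0.297 and 0.463.

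Smad3, the other receptor-activated Smad, lay between 9.36 and 9.65 over all 12 arrays. Its controls were at 9.38, 9.53 and 9.43 and the differences from control were 0.057, 0.073 and 0.028 with LCN13, TSC22D4 and both. Smad4, the shared partner of the activated Smads, lay between 10.95 and 11.25, and control replicates 2 and 3 held both ends of that range. Its differences from control were 0.046, -0.081 and 0.0052. For both genes all 3 intervals ended no farther out than -0.25 and 0.25, so changes of 1.5-fold were outside them. None of these passed (adjusted p from 0.775 to 0.998).

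Smad7, the inhibitory Smad, had the largest differences from control of all members and also the largest spread. The controls were at 7.56, 7.55 and 7.88 (mean 7.67 ± 0.19, SD, n = 3). LCN13 arrays were at 8.25, 8.38 and 8.41, and TSC22D4 arrays at 7.97, 8.33 and 8.23, all above the controls. Combined replicates 13 and 14 were at 8.42 and 8.71, the highest of the 12, but replicate 16 was at 7.70, inside the control range. All 3 group means were thus above control, as were those of 23.8% of all genes. Of the 9 shRNA arrays, 8 lay above every control, and the share of all genes with that pattern was not counted. The differences were 0.68 with LCN13 (1.61-fold, SE 0.22, interval 0.18 to 1.18), 0.51 with TSC22D4 (1.42-fold, interval 0.011 to 1.01) and 0.61 with both (1.53-fold, interval 0.11 to 1.11). None passed in limma over all genes (adjusted p = 0.225, 0.411 and 0.321). Its residual SD was 0.29, higher than that of 98.2% of genes or equal to it. Without combined replicate 16 it passed with LCN13 (0.68, adjusted p = 0.0446) and with both (0.90, adjusted p = 0.0277) but not with TSC22D4 (0.51, adjusted p = 0.136); in no other fit without 1 array did Smad7 pass. Without combined replicate 14 the value with both was 0.39 (adjusted p = 0.612), so single arrays of that group moved it in both directions.

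The mean of the 3 shRNA groups was set against control in the same fit, a comparison added after Smad2 and Smad7 had been seen to lie on the same side in all groups. It called 384 genes, 1.66%, and 0 members, with 3 members at an unadjusted p under 0.05 (Tgfb2, Smad2 and Smad7) against 11.5% of genes. Smad2 was at 0.11 (SE 0.026, adjusted p = 0.0829), Smad7 at 0.60 (SE 0.18, adjusted p = 0.193) and Tgfb2 at 0.18 (adjusted p = 0.369). Smad2 passed here with array weights (0.14, adjusted p = 0.0228), and Smad7 without combined replicate 16 (0.70, adjusted p = 0.0169). All comparisons with control share the same 3 control arrays, so the likeness of the 3 groups is partly that of their common reference. Less control virus and more gene-directed virus went together in these groups and cannot be told apart.

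**Figure D2:**
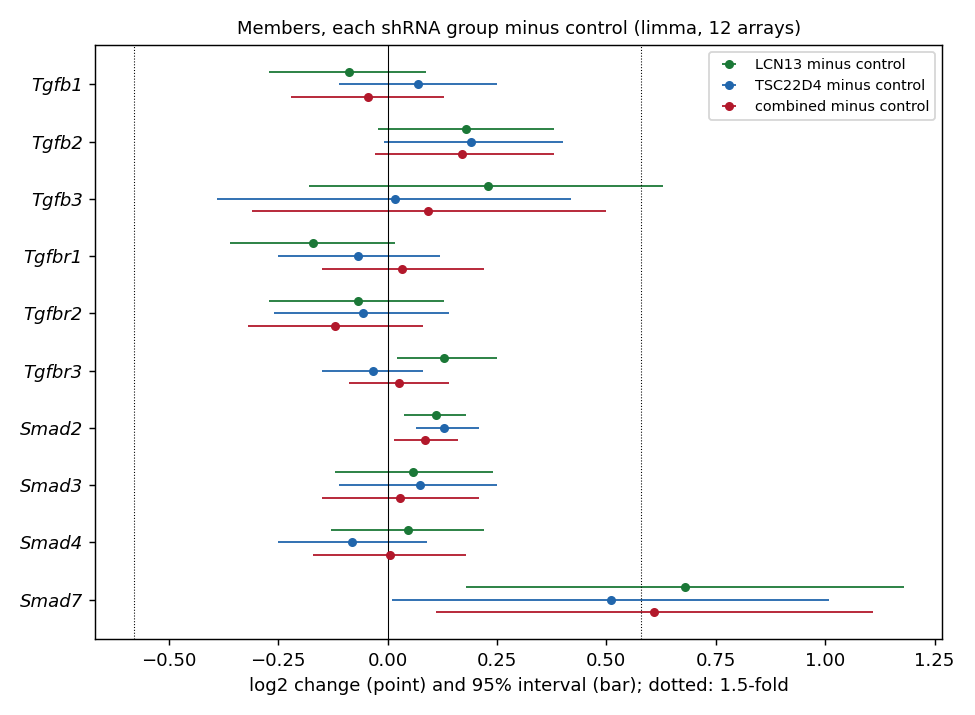
Log2 change of each member, shRNA group minus control (horizontal axis), with the limma estimate as a point and its unadjusted 95% interval as a bar; dotted lines mark 1.5-fold. Of the 30 intervals, 26 lie inside 1.5-fold in both directions, and the 4 that do not are those of Smad7 in each group and of Tgfb3 in the LCN13 group.

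With TSC22D4 shRNA against control, 272 genes or 1.17% were called and 0 of 10 members. At an unadjusted p under 0.05 there were 2 members (Smad2 and Smad7), and 11.8% of all genes. With LCN13 shRNA 333 genes or 1.44% were called and 0 members, with 3 members at the unadjusted level (Smad2, Smad7 and Tgfbr3) against 12.6% of genes. With both, 311 genes or 1.34% were called and 0 members, with 2 at the unadjusted level (Smad2 and Smad7) against 11% of genes. The median change of the members was 0.043, 0.083 and 0.031, beside -0.0022, 0.004 and 0.0015 over all genes. The arrays of Smad2 and Smad7 lay wholly above control with TSC22D4 (8.27% of genes did), those of Smad2, Smad7 and Tgfbr3 with LCN13 (8.75%), and those of Smad2 with both (7.72%).

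Between the shRNA groups, 0 members passed in limma. In the combined group against TSC22D4, 0 genes passed at all and 0 members had an unadjusted p under 0.05, where 6.91% of genes did. Against LCN13, 2 genes (0.00863%) passed in the combined group, with Tgfbr1 the only member at an unadjusted p under 0.05 (10.7% of genes). TSC22D4 against LCN13 called 239 genes (1.03%), with Tgfbr3 the only member at the unadjusted level (17.7% of genes). The interaction, which is the TSC22D4 difference in the presence of the LCN13 virus minus that in its absence, called 92 genes (0.397%) and 0 members. Its unadjusted p was under 0.05 for 2 members against 7.08% of genes: Smad2 at -0.16 (SE 0.045, adjusted p = 0.351) and Tgfbr1 at 0.27 (adjusted p = 0.691). Smad7 was at -0.58 (interval -1.29 to 0.12, adjusted p = 0.808). In the combined group against TSC22D4, Smad2 was at -0.049 (interval -0.12 to 0.021) and Smad7 at 0.099 (interval -0.40 to 0.60). Against LCN13 they were at -0.024 (interval -0.095 to 0.047) and -0.074 (interval -0.57 to 0.43), so the intervals of Smad7 are wide and include a higher as well as a lower level.

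Other genes of the pathway were taken from 5 lists, in which 79 genes were measured. With TSC22D4 shRNA 0 of 79 passed, with LCN13 shRNA 3 passed, each higher, and with both 2 passed, each higher. The median changes over the 79 were 0.028, 0.064 and 0.047. Among all genes, 0.293% passed higher with TSC22D4, 0.397% with LCN13 and 0.315% with both.

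**Figure D3:**
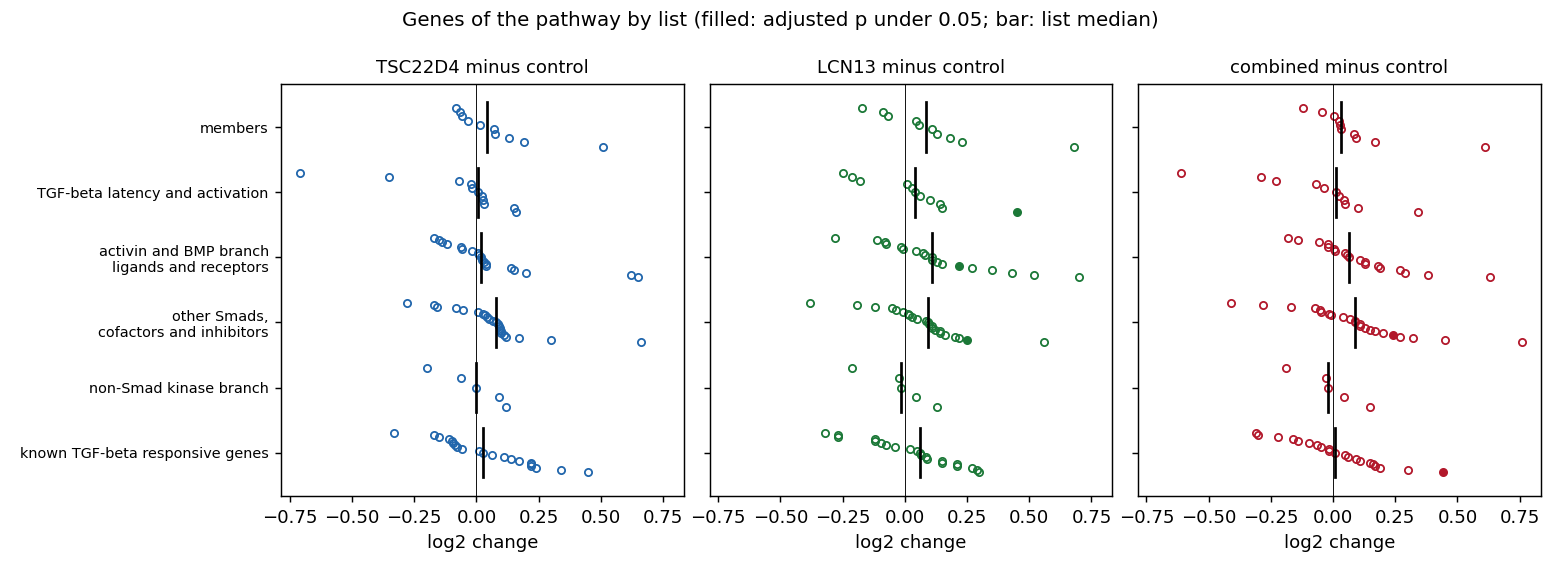
Log2 change against control (horizontal axis) of the 10 members and of the 79 measured genes in 5 pathway lists (rows), 1 panel per shRNA group; filled circles passed limma's adjusted p under 0.05 and black bars are list medians. The filled points are Ltbp4, Acvr1 and Smad5 with LCN13 and Usp15 and Snai2 with both, all to the right of 0, and the medians lie between -0.02 and 0.11.

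Genes that store or activate latent TGF-beta were measured for 11 of 12. Ltbp4, a latent TGF-beta binding protein that anchors the latent complex to elastic fibres, rose with LCN13 shRNA by 0.45 (SE 0.071, limma adjusted p = 0.0143). Its controls were at 10.48, 10.25 and 10.23 and its LCN13 arrays at 10.80, 10.84 and 10.69, with no overlap. In that comparison 8.75% of all genes lay higher on all 3 LCN13 arrays. Ltbp4 was at 0.34 with both (adjusted p = 0.0545, or 0.38 and adjusted p = 0.0146 with array weights) and at 0.16 with TSC22D4 (adjusted p = 0.406). Thbs1, thrombospondin 1, which can activate latent TGF-beta, was at -0.71 with TSC22D4 (adjusted p = 0.0582), -0.61 with both (adjusted p = 0.0927) and -0.25 with LCN13. It passed, lower, with TSC22D4 in 4 of 19 alternative fits (adjusted p of 0.0413 with array weights, 0.0168 without dim probe sets, 0.0263 with the trended prior and 0.0325 without LCN13 replicate 8) and with both in 1 (adjusted p = 0.0356 without dim probe sets). Its controls were at 12.74, 12.30 and 12.27, above all TSC22D4 arrays (11.57 to 11.87) and all combined arrays (11.76 to 11.87). The share of all genes that lay lower in this way was not counted. Lrrc32, which holds latent TGF-beta on the cell surface, was at -0.35 with TSC22D4 (adjusted p = 0.304). The call of Ltbp4 was lost in 5 of 19 alternative fits: without control replicate 2 (adjusted p = 0.0628), without LCN13 replicate 5 (0.0659) or 6 (0.0664), with only the 6 arrays compared (0.139) and without both LCN13 arrays, where the value was 0.37 (adjusted p = 0.296).

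In the activin and BMP branch, 1 of 19 genes passed with LCN13 and 0 in the other groups. Acvr1, a type I receptor for BMPs, rose with LCN13 shRNA by 0.22 (SE 0.043, adjusted p = 0.0463), with controls at 9.32, 9.22 and 9.23 and LCN13 arrays at 9.48, 9.48 and 9.45. It was at 0.19 with both (adjusted p = 0.0851) and at 0.039 with TSC22D4. Its call was lost in 14 of 19 alternative fits, with an adjusted p of up to 0.427. Bmpr1a, another type I BMP receptor, lay above control on all 9 shRNA arrays, at 11.15 to 11.37 against 10.97 to 11.08. That separation held for 1.1% of all genes. The differences of Bmpr1a were 0.20 with TSC22D4 (adjusted p = 0.162), 0.27 with LCN13 (adjusted p = 0.0513) and 0.27 with both (adjusted p = 0.0518). It passed for the mean of the 3 groups (0.24, adjusted p = 0.0288). In that comparison 2 of the 79 pathway genes passed, each higher, the other being in the latency and activation list. The values with LCN13 and for the mean lie outside the naming rule. Mstn, myostatin, was at 0.62 with TSC22D4 (adjusted p = 0.212), with TSC22D4 arrays at 6.44, 6.87 and 6.55 against controls from 5.98 to 6.01, near the lower end of the arrays.

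Among other Smads, cofactors and inhibitors, 1 of 23 genes passed with LCN13, 1 with both and 0 with TSC22D4. Smad5, a Smad of the BMP branch, rose with LCN13 shRNA by 0.25 (SE 0.039, adjusted p = 0.0114), with controls at 7.72, 7.77 and 7.84 and LCN13 arrays at 8.02, 8.07 and 8.00. It was at 0.085 with TSC22D4 and 0.089 with both, and its call was lost in 5 of 19 alternative fits, among them those without control replicate 2 and without LCN13 replicate 6 (adjusted p = 0.0518 in each), and without LCN13 replicates 5 and 6 the value was 0.22 (adjusted p = 0.237). Usp15, a deubiquitinase that acts on TGFBR1 and receptor-activated Smads, rose with both by 0.24 (SE 0.047, adjusted p = 0.0499), just inside the threshold, and lost its call in 16 of 19 alternative fits (adjusted p up to 0.185). Pmepa1, a TGF-beta-induced membrane protein that, like SMAD7, dampens the pathway, did not pass in any group. It was at 11.09, 10.86 and 11.02 in the controls and between 11.36 and 12.01 on all 9 shRNA arrays. Such a separation held for 1.1% of all genes. The differences of Pmepa1 were 0.66 with TSC22D4 (adjusted p = 0.173), 0.56 with LCN13 (adjusted p = 0.237) and 0.76 with both (adjusted p = 0.103). The values with LCN13 and with both lie outside the naming rule and were chosen after they were seen. Tgif2, a co-repressor, was at -0.084 with TSC22D4 (adjusted p = 0.241).

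Of 21 measured genes that TGF-beta is known to regulate, 1 passed with both and 0 in each single group, and the medians were 0.028 with TSC22D4, 0.062 with LCN13 and 0.0082 with both. Snai2, a transcription factor of mesenchymal cells, rose with both by 0.44 (SE 0.085, adjusted p = 0.041), with controls at 9.34, 9.31 and 9.06 and combined arrays at 9.62, 9.76 and 9.66. Its call was lost in 11 of 19 alternative fits (adjusted p up to 0.164), including those without any 1 combined array. Matrix targets did not pass: Col1a1 was at 0.24, 0.021 and 0.16 with TSC22D4, LCN13 and both, Fn1 at 0.17, 0.21 and 0.15, and Ccn2 at -0.33, -0.12 and -0.31. These 3 were picked as well-known targets after the values were computed. Cdkn2b, a cell cycle inhibitor induced by TGF-beta, was at 0.45 with TSC22D4 (adjusted p = 0.238), and Tsc22d1, the founding TGF-beta-stimulated clone 22 gene, at 0.14 (adjusted p = 0.276). With LCN13, Junb was at 0.30 (adjusted p = 0.0513) and the cell cycle inhibitor Cdkn1a at -0.27 (adjusted p = 0.0608).

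In the kinase branch that does not use Smads, 0 of 5 genes passed in any group. Map3k7, which codes for the TGF-beta-activated kinase TAK1, was at 0.13 with LCN13 (adjusted p = 0.452) and 0.15 with both (adjusted p = 0.419). Traf6, the ubiquitin ligase upstream of it, was at -0.21 with LCN13 (adjusted p = 0.463) and -0.19 with both. Its partners Tab3 and Tab1 were at -0.20 (adjusted p = 0.268) and 0.12 with TSC22D4.

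**Figure D4:**
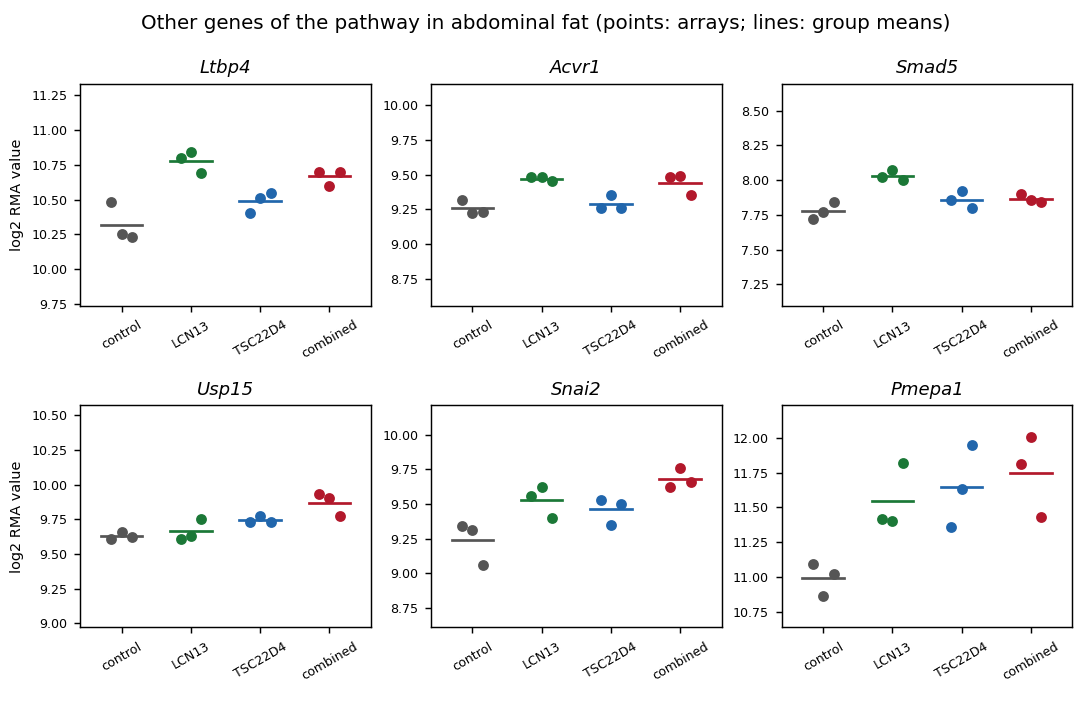
Log2 RMA values (vertical axis, each panel 1.6 units high) of 6 further pathway genes on the 12 arrays by shRNA group (horizontal axis); points are arrays and lines group means. Ltbp4, Acvr1 and Smad5 passed with LCN13, and Usp15 and Snai2 passed with both. Pmepa1, which did not pass, lies at 10.86 to 11.09 in controls and at 11.36 to 12.01 elsewhere. Of all genes, 1.1% lay above control on every shRNA array.

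The genes most like the 3 members with the smallest F p were found by Pearson's r over the 12 arrays, as a description over arrays that share groups, chosen as the highest among the named genes. For Smad2 they were Rex2 (r = 0.876, Spearman's rho 0.839), whose values span only 0.08 units near the lower end, the growth factor gene Fgf1 (r = 0.87, rho 0.818) and the muscle intermediate filament gene Des (r = 0.854, rho 0.776). For Tgfbr3 they were Zdhhc1 (r = 0.965, rho 0.921), Ankrd11 (r = 0.962, rho 0.97) and the aryl hydrocarbon receptor Ahr (r = 0.911, rho 0.881). For Smad7 they were Asap1 (r = 0.91, rho 0.867), the receptor phosphatase Ptprs (r = 0.905, rho 0.802) and Hr (r = 0.898, rho 0.888).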

How the data were processed

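The authors deposited 1 log2 value per probe set and array, made with RMA per the submitters' processing notes. RMA's settings and the build behind the probe sets are not stated in the labels. They ranged from 5.62 to 14.4, and sorted columns differed by at most 0.00188, so a change shared by most genes is removed. The table held 25206 probe sets, of which 23185 had 1 gene symbol, 0 several and 2021 none. Named genes were tested with limma 3.58.1 (R 4.3.3) over all 12 arrays with 1 mean per group, 8 residual degrees of freedom, two-sided, Benjamini-Hochberg adjusted over the 23185, and called at an adjusted p under 0.05. Intervals are 95% and unadjusted. The script was tested on simulated data. The labels describe separate animals, and the number of arrays limits the precision. Arrays within a group correlated at 0.994 to 0.998.

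The members and gene lists were chosen with earlier results of these data known. Named pathway genes were, per list and comparison with control, those that passed, or the 2 with the smallest p where none did; others named are stated as such or come from the marker lists. Alternatives were array weights, only the 6 arrays compared, a filter on dim probe sets, a shift of each array, a trended robust prior, all probe sets, and leaving out arrays. The RefSeq table of GRCm38.p6 gave the start regions, and those of 5 members were searched. Smad2, Smad4 and Smad7 were left out because member windows on their chromosome were skipped. Tgfb3 and Tgfbr3 had no entry. The shares over all windows kept that chromosome. The 50 bases after the start were not used.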

Additional observations from a re-analysis of the deposited data

How the results depend on the processing

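No paired analysis was possible because the groups share no replicate numbers. The count of members called was 0 in each comparison and stayed at 0 in all alternatives except these. With array weights it was 1 (Smad2) in TSC22D4 against control, LCN13 against control, the mean of the 3 shRNA groups against control and the F test. Without combined replicate 16 it was 1 (Smad7) in LCN13 against control, combined against control and the mean comparison, so leaving out 1 array gave a range of 0 to 1 for each of these 3. Of 1500 member values under alternatives, 6 passed the threshold, and 78 changed sign, all of them uncalled. The means of LCN13 arrays without replicates 5 and 6 rest on 1 array, assumed to vary like the other groups.

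Counts of all genes called moved more. With array weights they were 447 (TSC22D4 against control), 680 (LCN13 against control), 518 (combined against control), 14 (combined against LCN13), 1178 (TSC22D4 against LCN13), 596 (mean of the shRNA groups) and 935 (F test). With only the 6 arrays compared they were 142, 102, 126, 0 and 75 for the first 5 of these. Combined against LCN13 gave 7 without dim probe sets and 8 with the trended prior. Without LCN13 replicates 5 and 6 the counts were 100 (LCN13 against control), 0 (combined against LCN13), 0 (TSC22D4 against LCN13), 35 (interaction) and 171 (F test). Leaving out 1 array gave 153 to 350 for TSC22D4 against control, 205 to 426 for LCN13 against control, 165 to 376 for combined against control, 0 to 4 for combined against TSC22D4, 0 to 94 for combined against LCN13, 2 to 582 for TSC22D4 against LCN13, 47 to 104 for the interaction, 233 to 420 for the mean of the shRNA groups and 209 to 531 for the F test. The cause was not tested. Among named genes that did not pass in the report, Junb (LCN13) and Ltbp4 (combined) each passed in 4 of the alternative fits. Cdkn1a (LCN13), Bmpr1a (combined) and Acvr1 (combined) passed in 2 each. Thbs1 passed in 4 with TSC22D4 and in 1 with both. Mstn and Obp2a lay near the lower end of the arrays, where differences are compressed.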
